A study of Homo sapiens with 12 samples.

Results

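Cells that lack oxygen stabilise the hypoxia-inducible factors, and these switch on a set of genes that make more glycolytic enzymes, new vessels, acid buffers, collagen enzymes and mitophagy receptors. Here 37 of the 58735 genes in the count table were examined: 2 of the factors themselves (HIF1A and EPAS1, which encodes HIF-2α), the regulators around them, and well-known targets that are not enzymes of glycolysis. They were picked out by gene symbol, from a list drawn up with earlier results of these data known. Shares of the 37 set beside shares of all genes are therefore descriptions and not tests. All 37 were found and passed the filter on low counts. The cells were A549, a human lung adenocarcinoma line that grows attached to plastic. Control cells (Ctrl) and cells made to express GFI1 were each kept attached or placed in suspension (floating), which gave 4 groups of 3 RNA-seq libraries: attached Ctrl, floating Ctrl, attached GFI1 and floating GFI1. Floating cells had spent 48 h in suspension, and attached cells of both genotypes were the reference. GFI1, a zinc finger repressor best known from blood cell development, came from a lentivirus that marked infected cells with GFP, and GFP-positive cells were sorted. Which virus the control cells carried for these libraries is not given in the sources used here, and the labels name no hypoxic culture.

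As background, HIF-α proteins are made all the time and destroyed all the time. With oxygen present, prolyl hydroxylases of the EGLN (PHD) family mark HIF-α, and the von Hippel-Lindau protein sends it for degradation. Without oxygen, HIF-α pairs with ARNT and binds the core letters ACGTG or GCGTG in DNA. EGLN3 and, less strongly, EGLN1 are HIF targets themselves, so they act as a brake, and CITED2 is a target whose protein competes with HIF-α for the coactivators p300 and CBP. HIF-α protein is set mostly by its destruction, so mRNA levels of HIF1A and EPAS1 are not a measure of HIF activity. Protein was not measured in these files.

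Libraries held between 17014188 and 20748677 counts, and 26273 to 28042 genes had at least 1 count. GFI1 checked the labels: in CPM, counts scaled to library size, it measured 0.238, 0.543 and 0.631 in the attached control libraries and 0.711, 0.482 and 0.68 CPM in the floating control libraries, against 290.4, 294 and 286 CPM in attached and 545, 706 and 430.2 CPM in floating GFI1 cells. The summed level of 6 epithelial genes was 10386 to 10986 CPM in attached control and 6529 to 6938 CPM in floating control libraries. It was 4222 to 4339 CPM in attached GFI1 and 3039 to 3411 CPM in floating GFI1 libraries. Nearly all of it was KRT8, KRT18 and KRT7, while EPCAM had 6 to 45 and KRT19 13 to 89 counts per library. CDH1 ran from 3.64 to 122 CPM over all libraries. This sum does not by itself identify the cell line. Genes of other cell types were low but did not all stay level. The sum of 5 endothelial genes was 0.163 to 0.459 CPM in attached and 0.283 to 0.722 CPM in floating control libraries, and 3.65 to 5.26 CPM in attached and 5.02 to 5.62 CPM in floating GFI1 libraries, with KDR at 0 to 1 counts throughout. The sum of 5 leukocyte genes, nearly all of it CD14, was 4.51 to 7.17 CPM in attached and 10.03 to 13.8 CPM in floating control libraries, and 4.28 to 5.16 and 6.76 to 7.83 CPM in the GFI1 groups, while PTPRC had 0 to 1 counts and CD3E none. The sum of 6 fibroblast genes was 7.72 to 15.6 CPM over all libraries, in which PDGFRB was higher (log2 3.99) and COL1A1 lower (log2 -1.03) with GFI1 in attached cells, and DCN had no count. The epithelial, endothelial and leukocyte sums thus moved with genotype or suspension, and their part in the results below was not tested. In bulk RNA, fewer cells with a transcript and less of it per cell cannot be told apart. The floating GFI1 libraries stood apart from each other: a chi-square of the counts per gene was 11.4 between replicates 2 and 3, against 1.99 to 4.84 between all other pairs of replicates. Where leaving out 1 of these libraries ended a call or moved a called effect by over 1.5 times, the library is named or the range of values is given beside the result.

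Promoters were compared with the HIF core letters, because the factors bind DNA at these letters. RefSeq promoters (GRCh38.p14, 250 bases before to 50 bases after the start) were found for 30 of the 37 genes. ACGTG, read on either strand, occurred in 17 of the 30 (56.7%), against 21.6% of all 27305 promoters and 26.3% of the 11415 promoters of genes that were tested for expression. GCGTG occurred in 17 of the 30 (56.7%), against 36.3% of all promoters and 49.8% of those of tested genes. A palindromic CACGTG holds ACGTG on both strands. With such overlaps counted once, 4 of the 30 (13.3%) held 2 or more ACGTG sites, against 3.49% of all promoters and 4.84% of those of tested genes. The sequences below show 3 promoters of genes that rose in suspension to different degrees (CA9, PPFIA4 and ANKRD37) and 2 of genes that were lower with GFI1 in both states (BNIP3 and PLOD2), and capitals mark ACGTG and its complement CACGT. CA9 lies at chr9:35673678-35673977 (plus strand), PPFIA4 at chr1:203026241-203026540 (plus strand), ANKRD37 at chr4:185396591-185396890 (plus strand), BNIP3 at chr10:131981874-131982173 (minus strand) and PLOD2 at chr3:146161135-146161434 (minus strand), and each sequence is written along the strand of its gene.
CA9: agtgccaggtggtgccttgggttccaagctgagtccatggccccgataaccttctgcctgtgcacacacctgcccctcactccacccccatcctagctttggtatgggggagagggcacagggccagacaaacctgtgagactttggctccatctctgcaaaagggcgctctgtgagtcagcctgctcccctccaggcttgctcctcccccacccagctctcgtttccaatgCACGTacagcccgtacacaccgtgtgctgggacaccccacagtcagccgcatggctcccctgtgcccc
PPFIA4: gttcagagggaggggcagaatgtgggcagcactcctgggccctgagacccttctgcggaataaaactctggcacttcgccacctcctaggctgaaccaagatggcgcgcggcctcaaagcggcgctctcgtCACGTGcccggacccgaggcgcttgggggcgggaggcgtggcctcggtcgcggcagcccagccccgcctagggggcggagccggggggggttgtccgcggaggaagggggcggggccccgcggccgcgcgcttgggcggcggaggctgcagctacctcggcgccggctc
ANKRD37: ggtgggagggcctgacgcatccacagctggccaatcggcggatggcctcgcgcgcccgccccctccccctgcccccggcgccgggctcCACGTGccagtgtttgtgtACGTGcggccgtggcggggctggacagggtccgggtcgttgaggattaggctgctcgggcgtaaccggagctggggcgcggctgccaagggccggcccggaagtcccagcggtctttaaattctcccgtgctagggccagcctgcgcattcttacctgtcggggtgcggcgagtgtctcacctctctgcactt
BNIP3: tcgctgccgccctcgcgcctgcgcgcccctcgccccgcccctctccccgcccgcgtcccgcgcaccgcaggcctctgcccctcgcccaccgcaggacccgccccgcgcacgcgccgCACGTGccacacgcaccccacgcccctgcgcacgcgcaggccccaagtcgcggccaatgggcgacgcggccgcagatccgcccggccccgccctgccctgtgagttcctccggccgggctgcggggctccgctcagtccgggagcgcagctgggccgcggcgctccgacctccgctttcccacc
PLOD2: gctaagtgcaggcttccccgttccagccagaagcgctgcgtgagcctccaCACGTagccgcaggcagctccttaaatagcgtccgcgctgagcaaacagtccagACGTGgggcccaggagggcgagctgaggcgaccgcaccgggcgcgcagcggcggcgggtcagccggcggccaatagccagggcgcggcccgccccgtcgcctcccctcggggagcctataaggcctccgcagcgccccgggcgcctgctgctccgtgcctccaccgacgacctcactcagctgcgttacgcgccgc
In CA9 the match began 18 bases before the start. ANKRD37 and PLOD2 held 2 separate ACGTG sites each, while PPFIA4 and BNIP3 held 1 palindrome each. GCGTG is not marked in these sequences. Read on either strand, it began at -143, -125, -116 and -104 bases from the start in BNIP3, at -84 in PPFIA4 and at -213 in PLOD2. After suspension in control cells the median log2 change was 1.00 for the 17 genes with ACGTG (range 0.21 to 5.28) and 0.89 for the 13 without (range -0.39 to 2.53), and in GFI1 cells it was 1.06 and 0.80. With GFI1 in attached cells the median was 0.18 for genes with ACGTG and 0.64 for those without. Split by GCGTG, which 17 genes held and 13 did not, that median was -0.24 with and 0.88 without the letters, and after suspension in control cells it was 0.86 and 1.38. The ranges of the split groups overlapped in each case, and no difference between them was tested. A match is only a stretch of letters, and binding was not measured in these files.

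Suspension raised nearly all of these genes. In control cells, 33 of 37 were higher in floating than in attached cells, 2 were lower and 2 did not pass at an adjusted p of 0.05 (quasi-likelihood test in edgeR), where 40.1% of all 17829 tested genes passed, 19.6% higher and 20.5% lower. In GFI1 cells 32 were higher, 0 were lower and 5 did not pass, with 15% of all genes higher and 16.3% lower. At unadjusted p under 0.05 the lower count in GFI1 cells was 0, and DESeq2 also called 0 lower. A rise of 2-fold or more was called for 19 genes in control cells (3.7% of all genes) and for 20 in GFI1 cells (1.98%), and a fall of that size for none of the 37 (1.4% and 0.824% of all genes). The median log2 change of the 37 was 1.00 in control and 1.06 in GFI1 cells, and that of all genes tested was 0.01 and 0.00. The same 32 genes rose in both genotypes, a pattern that 9.77% of all genes had. No library decided these counts: with each library left out in turn, 32 or 33 genes were higher in control cells and 32 or 33 in GFI1 cells. Summed over the 37 genes, the level was 3894 to 3959 CPM in attached control, 6366 to 6783 CPM in floating control, 4220.1 to 4337 CPM in attached GFI1 and 6241 to 9923 CPM in floating GFI1 libraries.

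**Figure D1:**
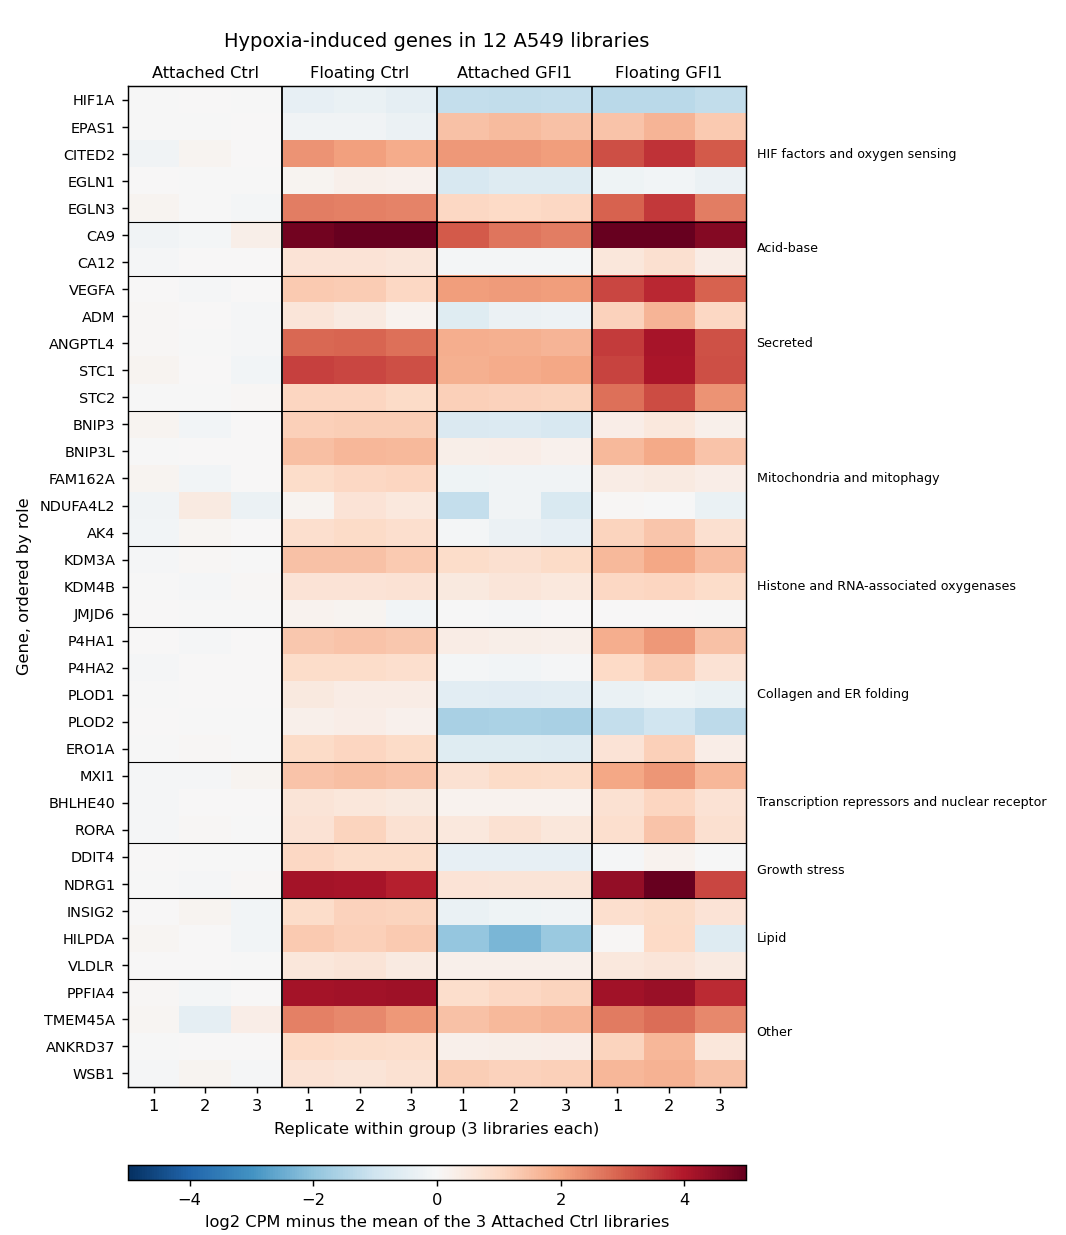
Each row is a gene, grouped by role, and each column a library. Colour gives log2 CPM minus the mean of the 3 attached control libraries, blue below and red above 0, and values beyond the end of the scale (CA9, NDRG1) take its darkest shade. Both floating groups are mostly red, and HIF1A, PLOD2 and HILPDA are blue in attached GFI1 cells.

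GFI1 split the same genes. In attached cells 33 of 37 passed (62.3% of all genes), of which 20 were higher with GFI1 and 13 were lower, against 29.5% and 32.8% of all genes, so the share that was lower was near the background. In floating cells 25 passed (60.4%), 16 of them higher and 9 lower, against 29.3% and 31.1% of all genes. Changes of 2-fold or more were called for 11 higher (9.7%) and 3 lower genes (8.51%) in attached cells, and for 4 higher (8.44%) and 2 lower genes (8.82%) in floating cells. The median GFI1 effect on the log2 scale was 0.28 for attached cells. For floating cells it was 0.24, and it was -0.0465 when floating GFI1 replicate 2 was left out. Genes higher in both states numbered 14 (22.9% of all genes had this pattern) and genes lower in both states numbered 9 (26.7%), while ADM and AK4 were lower with GFI1 in attached cells and higher in floating cells (0.589%). The attached call of ADM and both calls of AK4 were lost with DESeq2 and with robust empirical Bayes. Of the 37, 19 both rose with suspension in control cells and were higher with GFI1 in attached cells (10.1% of all genes), and 11 rose and were lower (5.06%). These percentages are shares of all 17829 genes, of which only 3489 rose with suspension, while 33 of the 37 did. Among the 3489 that rose, 1803 were higher and 903 lower with GFI1 in attached cells, beside 19 and 11 of the 33 here. No difference between these shares was tested. The GFI1 effect in attached cells and the suspension effect in control cells share the attached control libraries. With counts scaled by library size only, the median GFI1 effect of all genes was 0.14 on the log2 scale in both states, the share of higher calls among all called genes became 61.5% rather than 47.4% (attached) and 61.4% rather than 48.5% (floating), and 20 of the 37 were higher and 8 lower in attached cells.

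Of the 2 factors, HIF1A fell and EPAS1 rose with GFI1. HIF1A (chr14:61695513-61748259), the α subunit found in most cell types, measured 637, 655 and 635 CPM in the attached control libraries, 488, 512 and 474 in the floating control libraries, 279, 270.3 and 282 in the attached GFI1 libraries and 255, 255 and 274 in the floating GFI1 libraries. All 6 GFI1 libraries lay below all 6 control libraries. Positions here are those of the deposited table, on hg38. GFI1 changed it by -1.21 ± 0.04 log2 (± SE) in the attached state and by -0.91 ± 0.04 in the floating state (edgeR, adjusted p = 2.9e-18 and 1.2e-15). Suspension lowered HIF1A in control cells (-0.39 ± 0.04, edgeR, adjusted p = 4.8e-08), and in GFI1 cells the change was -0.08 ± 0.04 (edgeR, adjusted p = 0.149). The suspension effects differed between the genotypes by 0.30 ± 0.06 (GFI1 minus control cells, the sign used for every such difference; edgeR, adjusted p = 0.0013).

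EPAS1 (chr2:46293667-46386703), the subunit known from endothelium, lung and kidney tumours, measured 351, 349 and 360.4 CPM in the attached control libraries, 317, 316 and 291 in the floating control libraries, 979.8, 1065 and 973 in the attached GFI1 libraries and 952, 1142 and 885 in the floating GFI1 libraries. All 6 GFI1 libraries were above all 6 control libraries. GFI1 raised it by 1.51 ± 0.06 log2 in attached and 1.69 ± 0.06 in floating cells (edgeR, adjusted p = 1.5e-16 and 1.6e-17), while suspension changed it little: -0.20 ± 0.06 in control cells (edgeR, adjusted p = 0.0151) and -0.02 ± 0.06 in GFI1 cells (edgeR, adjusted p = 0.86). The small fall in control cells was no longer called without attached control replicate 3 or floating control replicate 3, where values over single libraries left out ran from -0.22 to -0.16.

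Per length of transcript, in RPKM (CPM divided by gene length in kilobases), the order of the 2 factors differed between the genotypes. The RPKM of HIF1A was 2.498 to 2.66 times that of EPAS1 in attached control libraries and 2.19 to 2.30 times in floating control libraries, and 0.360 to 0.410 times in attached GFI1 and 0.316 to 0.438 times in floating GFI1 libraries. In RPKM, HIF1A was 125 ± 2.20 (SD, n = 3) in attached control and 53.7 ± 1.13 in attached GFI1 cells, and EPAS1 was 48.4 ± 0.797 and 138 ± 7.02. Thus EPAS1 mRNA exceeded HIF1A mRNA in every GFI1 library and in no control library. The other family pairs among the 37 shifted too. BNIP3 over BNIP3L in RPKM was 0.973 to 1.20 in attached control, 0.808 to 0.858 in floating control, 0.527 to 0.539 in attached GFI1 and 0.413 to 0.477 in floating GFI1 libraries. PLOD2 over PLOD1 was 1.35 to 1.43 and 1.18 to 1.36 in the control groups, and 0.640 to 0.674 and 0.696 to 0.813 in the GFI1 groups. Which of these 2 is higher depends on the gene length used. The deposited length of PLOD2 is 7646 bases, and its exons cover 14518 bases in GENCODE release 44. In mean CPM, PLOD2 was above PLOD1 in floating GFI1 cells (136 against 125).

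**Figure D2:**
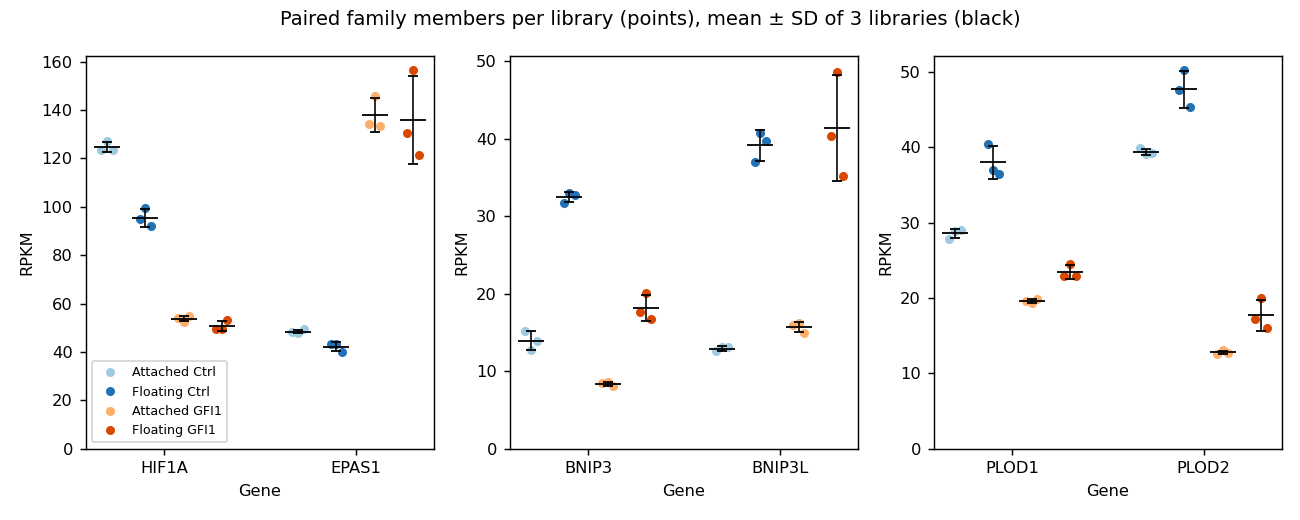
RPKM (vertical axis, from 0) of HIF1A and EPAS1, BNIP3 and BNIP3L, and PLOD1 and PLOD2 in each library (points, coloured by group) with the mean ± SD of 3 libraries in black. In the GFI1 groups EPAS1 lies above HIF1A and PLOD1 above PLOD2, and in the control groups the order is the opposite. The order of PLOD1 and PLOD2 depends on the gene length used.

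The feedback genes of the pathway went different ways. CITED2 (chr6:139371807-139374620), the competitor for p300 and CBP, was lowest in attached control cells and measured 10.9, 13.5 and 12.6 CPM in the attached control libraries, 58.7, 51.8 and 45.1 in the floating control libraries, 55.4, 55.8 and 52.2 in the attached GFI1 libraries and 116, 153 and 105 in the floating GFI1 libraries. The attached GFI1 libraries lay within the range of the floating control libraries, and the floating GFI1 libraries were above all others. GFI1 raised it by 2.14 ± 0.13 log2 in attached and 1.26 ± 0.10 in floating cells (edgeR, adjusted p = 9.5e-14 and 2.7e-11), and suspension by 2.07 ± 0.13 in control and 1.19 ± 0.10 in GFI1 cells (edgeR, adjusted p = 1.8e-12 and 5.6e-10). The suspension effects differed between the genotypes by -0.88 ± 0.16 (edgeR, adjusted p = 0.00054), a call that was lost with robust empirical Bayes (adjusted p = 0.0614).

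EGLN1 (chr1:231363751-231425044), the main oxygen-sensing hydroxylase, measured 144, 137 and 140.3 CPM in the attached control libraries, 155, 167 and 164 in the floating control libraries, 81.4, 88.8 and 89.4 in the attached GFI1 libraries and 122, 128 and 115 in the floating GFI1 libraries. It was lower with GFI1 in attached (-0.70 ± 0.05) and in floating cells (-0.41 ± 0.05; edgeR, adjusted p = 3.4e-12 and 4e-08), and higher after suspension in both genotypes (0.21 ± 0.05 and 0.49 ± 0.05; edgeR, adjusted p = 0.00093 and 1.8e-08). The difference between these suspension effects was 0.28 ± 0.07 (edgeR, adjusted p = 0.0064). In GENCODE release 44, 55.8% of its exon bases also lie in exons of an unnamed gene on the same strand, so its counts are uncertain. EGLN3 (chr14:33924231-34462774), the strongly inducible hydroxylase, measured 14.9, 13.3 and 12.8 CPM in the attached control libraries, 80.7, 78.8 and 76.7 in the floating control libraries, 27.7, 27.1 and 28.3 in the attached GFI1 libraries and 107, 158 and 80.4 in the floating GFI1 libraries. Suspension raised it 5.76-fold in control and 4.15-fold in GFI1 cells (log2 2.53 ± 0.16 and 2.05 ± 0.14; edgeR, adjusted p = 4.2e-12 and 3.1e-11). GFI1 raised it by 1.02 ± 0.18 in attached and 0.55 ± 0.13 in floating cells (edgeR, adjusted p = 2.1e-05 and 0.00063), although floating GFI1 replicate 3, at 80.4 CPM, lay within the floating control libraries, and without floating GFI1 replicate 2 the floating effect was 0.26.

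Of 18 further genes that make, bind or degrade HIF-α (ARNT, VHL, HIF1AN, EP300 and others), 17 were tested. Suspension raised 3 (17.6%, against 19.6% of all genes) and lowered 5 (29.4%, against 20.5%) in control cells. In GFI1 cells it raised 3 (17.6%, against 15%) and lowered 3 (17.6%, against 16.3%). With GFI1, attached cells had 6 of them higher (35.3%, against 29.5% of all genes) and 4 lower (23.5%, against 32.8%), and floating cells had 8 higher (47.1%, against 29.3%) and 6 lower (35.3%, against 31.1%). None was called at 2-fold or more in any of the comparisons, and the median size of the GFI1 effect, whatever its sign, was 0.16 log2 in attached and 0.23 in floating cells, against 0.40 and 0.38 over all genes. HSP90AB1, a chaperone that holds HIF-α, led the lower genes with GFI1 at -0.69 in attached cells, and EGLN2, the remaining HIF prolyl hydroxylase, led the higher ones at 0.41, followed by OS9, a lectin of the endoplasmic reticulum, at 0.40. The median of the list was -0.02 after suspension in control cells and -0.04 with GFI1 in attached cells. HIF3A, the remaining α subunit, had 0 to 2 counts per library and was not tested.

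The carbonic anhydrases, membrane enzymes that turn CO2 into bicarbonate and a proton, differed in level and response. CA9 (chr9:35673856-35681159), a marker of hypoxic tumour cells, had 5, 6 and 8 reads in attached control libraries, or 0.298, 0.326 and 0.459 CPM. It reached 12.9, 15.4 and 14.4 CPM in floating control, 3.77, 2.86 and 2.65 CPM in attached GFI1 and 20.5, 28.9 and 11.2 CPM in floating GFI1 libraries. No attached library reached the lowest floating one, and every attached GFI1 library was above every attached control library. Suspension raised CA9 by 5.28 ± 0.37 log2 in control cells, the largest change of the 37, and by 2.71 ± 0.23 in GFI1 cells (edgeR, adjusted p = 2.5e-11 and 1.6e-09). GFI1 raised it by 3.07 ± 0.49 in attached cells (edgeR, adjusted p = 6.7e-06). In floating cells the GFI1 effect was 0.49 ± 0.19 (edgeR, adjusted p = 0.0273) with overlapping groups, and it was no longer called without floating control replicate 1 or 3 or floating GFI1 replicate 1 or 2; without floating GFI1 replicate 2 it was 0.15, and without replicate 3 it was 0.79. DESeq2 and robust empirical Bayes did not call it either (adjusted p = 0.193 and 0.18), nor did edgeR with only the 2 floating groups fitted (adjusted p = 0.0647). The genotypes differed in the suspension effect by -2.57 ± 0.55 (edgeR, adjusted p = 0.0025; 0.102 with robust empirical Bayes). Of its exon bases, 35.7% are shared with ARHGEF39 on the opposite strand, and whether counting used strand is not given in the sources used here. CA12 measured 1152, 1196 and 1216 CPM (attached control), 1890.1, 1894 and 1827 (floating control), 1096, 1125 and 1103 (attached GFI1) and 1750.1, 2091 and 1543 (floating GFI1). It rose with suspension by 0.65 ± 0.07 in control and 0.70 ± 0.07 in GFI1 cells (edgeR, adjusted p = 9.8e-09 and 7e-09), and the GFI1 effect did not pass in either state (-0.10 ± 0.06 and -0.06 ± 0.06; edgeR, adjusted p = 0.183 and 0.441).

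All 5 genes for secreted proteins were higher after suspension in both genotypes and higher with GFI1 in floating cells, and 4 of 5 were higher with GFI1 in attached cells. Of all genes, 19.6% were higher after suspension in control and 15% in GFI1 cells, and 29.3% and 29.5% were higher with GFI1 in floating and attached cells. Among these calls, those for ADM after suspension in control cells (adjusted p = 0.0624 and 0.141) and for STC1 with GFI1 in floating cells (adjusted p = 0.212 and 0.229) were lost with DESeq2 and with robust empirical Bayes. The STC1 call was also lost in edgeR with only the 2 floating groups fitted (adjusted p = 0.0893). VEGFA, the vessel growth factor, measured 55.98, 53.1 and 55.5 CPM in the attached control libraries, 136, 134 and 114 in the floating control libraries, 235, 239.6 and 235 in the attached GFI1 libraries and 559.9, 752 and 419 in the floating GFI1 libraries. The 4 groups did not overlap. GFI1 raised it 4.31-fold in attached and 4.51-fold in floating cells (log2 2.11 ± 0.13 and 2.17 ± 0.12; edgeR, adjusted p = 1.4e-13 and 2.4e-14), and suspension raised it 2.33-fold and 2.44-fold (edgeR, adjusted p = 2.2e-08 and 2.5e-09). The difference between these suspension effects was 0.06 ± 0.17 log2 (edgeR, adjusted p = 0.875), which did not pass the test, and with single libraries left out it ran from -0.19 to 0.25.

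ADM, the vasodilator peptide adrenomedullin, measured 42.9, 42.2 and 39.8 CPM in the attached control libraries, 62.9, 57.6 and 46.9 in the floating control libraries, 27.5, 33.8 and 34.4 in the attached GFI1 libraries and 92.8, 135 and 84.6 in the floating GFI1 libraries. Suspension raised it by 1.70 ± 0.12 log2 in GFI1 cells (edgeR, adjusted p = 8.8e-11) and by 0.42 ± 0.13 in control cells (edgeR, adjusted p = 0.0097), where the call was lost without floating control replicate 1. The suspension effect was thus 1.28 ± 0.18 larger with GFI1 (edgeR, adjusted p = 1.7e-05). The GFI1 effect in attached cells was -0.38 ± 0.13 (edgeR, adjusted p = 0.016), lost without attached control replicate 1 or attached GFI1 replicate 1 and running from -0.42 to -0.29 over the libraries left out. Its call was also lost with DESeq2 (adjusted p = 0.0809), robust empirical Bayes (0.155) and library size only (0.121). In floating cells the GFI1 effect was 0.90 ± 0.12 (edgeR, adjusted p = 3.2e-07), and the floating groups did not overlap.

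ANGPTL4, an inhibitor of lipoprotein lipase, measured 18.2, 17.1 and 16.6 CPM in the attached control libraries, 127, 130.1 and 118 in the floating control libraries, 60.3, 58.9 and 56.5 in the attached GFI1 libraries and 195, 304 and 159 in the floating GFI1 libraries, with no overlap between any 2 groups. It rose by 2.86 ± 0.16 log2 with suspension in control and 1.90 ± 0.13 in GFI1 cells (edgeR, adjusted p = 3e-13 and 4.5e-11), a difference of -0.95 ± 0.21 (edgeR, adjusted p = 0.0033; 0.134 with robust empirical Bayes). GFI1 raised it by 1.76 ± 0.17 in attached and 0.81 ± 0.13 in floating cells (edgeR, adjusted p = 1.1e-09 and 4.6e-06), and the latter was 0.50 without floating GFI1 replicate 2. The stanniocalcins are glycoprotein hormones linked to calcium and phosphate handling. STC1 measured 14.2, 12.9 and 11.6 CPM in the attached control libraries, 137, 132 and 121 in the floating control libraries, 43.9, 46.8 and 49.2 in the attached GFI1 libraries and 136, 222 and 122 in the floating GFI1 libraries, and the floating groups overlapped. It rose 10.1-fold with suspension in control cells and 3.43-fold in GFI1 cells, a log2 difference of -1.55 ± 0.21 (edgeR, adjusted p = 1.7e-05). GFI1 raised STC1 by 1.85 ± 0.17 in attached cells (edgeR, adjusted p = 9.3e-10), and in floating cells the effect was 0.30 ± 0.12 (edgeR, adjusted p = 0.0369), lost without floating control replicate 2 or 3 or floating GFI1 replicate 2 (range 0.00 to 0.47). STC2 measured 43.5, 43.99 and 46.4 CPM in the attached control libraries, 93.2, 93.1 and 86.6 in the floating control libraries, 101, 99.8 and 96.8 in the attached GFI1 libraries and 305, 425 and 214 in the floating GFI1 libraries, and every floating GFI1 library was above every other one. Its GFI1 effect was 1.15 ± 0.14 in attached and 1.79 ± 0.13 in floating cells (edgeR, adjusted p = 1.4e-07 and 9.8e-12), and its suspension effect was 1.03 ± 0.15 in control and 1.66 ± 0.13 in GFI1 cells (edgeR, adjusted p = 2.7e-06 and 3e-10). The difference of 0.64 ± 0.19 (edgeR, adjusted p = 0.0347) was lost with any 1 library left out except floating GFI1 replicate 2 or 3 and was 0.34 without floating GFI1 replicate 2 (range 0.34 to 0.85).

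Among mitochondrial genes, suspension raised 4 of 5 in each genotype, where 19.6% of all genes in control and 15% in GFI1 cells were higher. In attached cells GFI1 lowered 4 of 5 (32.8% of all genes), and of these calls only that of BNIP3 held with each library left out and under every alternative other than a 2-fold minimum. BNIP3, a receptor that marks mitochondria for mitophagy, measured 80.6, 67.7 and 74.3 CPM in the attached control libraries, 169, 175 and 174 in the floating control libraries, 45.4, 45.6 and 42.9 in the attached GFI1 libraries and 94.2, 107 and 89.4 in the floating GFI1 libraries. Suspension raised it by 1.22 ± 0.06 log2 in control and 1.12 ± 0.06 in GFI1 cells (edgeR, adjusted p = 2.1e-14 and 8.3e-13), and GFI1 lowered it in both states (-0.73 ± 0.06 and -0.84 ± 0.06; edgeR, adjusted p = 2.8e-10 and 2.8e-12). Floating GFI1 libraries, at 89.4 to 107 CPM, lay above all attached control libraries and below all floating control libraries. BNIP3L (NIX), its relative, measured 54.2, 56.3 and 56.5 CPM in the attached control libraries, 159, 176 and 171 in the floating control libraries, 68.5, 70.02 and 64.4 in the attached GFI1 libraries and 174, 209 and 151 in the floating GFI1 libraries. It rose with suspension by 1.60 ± 0.08 and 1.40 ± 0.07 (edgeR, adjusted p = 1.9e-14 and 3.2e-13), but with GFI1 it was higher in attached cells, by 0.28 ± 0.08 (edgeR, adjusted p = 0.0038; 0.06 with robust empirical Bayes), and did not pass in floating cells.

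FAM162A, a mitochondrial protein tied to cell death in hypoxia, rose by 1.00 ± 0.06 in control cells and by 0.57 ± 0.07 in GFI1 cells, a difference of -0.43 ± 0.09 (edgeR, adjusted p = 0.0026), and was lower with GFI1 in floating cells (-0.62 ± 0.06; edgeR, adjusted p = 3.4e-09). In attached cells its GFI1 effect was -0.19 ± 0.07 (edgeR, adjusted p = 0.0202), a call lost without attached control replicate 1 or attached GFI1 replicate 3. AK4, a mitochondrial adenylate kinase, rose by 0.86 ± 0.10 and 1.38 ± 0.10 (edgeR, adjusted p = 1.7e-07 and 9.5e-11). Its GFI1 effects of -0.27 ± 0.11 in attached and 0.25 ± 0.09 in floating cells (edgeR, adjusted p = 0.0349 and 0.0243), and the difference of 0.52 ± 0.14, were all lost with DESeq2 and when some single libraries were left out: attached control replicate 2 or 3 or attached GFI1 replicate 2 or 3 for the first, floating control replicate 1 or 3 or floating GFI1 replicate 1 or 2 for the second, and attached control replicate 2 or 3 or attached GFI1 replicate 3 for the difference, with ranges of -0.36 to -0.17, 0.11 to 0.39 and 0.35 to 0.66. NDUFA4L2, a HIF-1 target that lowers complex I activity, had only 9 to 35 counts per library and did not pass for suspension (log2 0.44 ± 0.29 in control and 0.60 ± 0.33 in GFI1 cells). In attached cells it was lower with GFI1 (log2 -0.75 ± 0.33; edgeR, adjusted p = 0.0496), a call that 7 of 12 single libraries left out removed: attached control replicate 2, attached GFI1 replicates 1 and 3, floating control replicates 2 and 3 and floating GFI1 replicates 1 and 2 (range -1.11 to -0.46). DESeq2 did not call it either (adjusted p = 0.0785).

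The oxygen-dependent demethylases rose, and the related JMJD6 did not pass any test. KDM3A, which removes methyl groups from histone H3 lysine 9, measured 35.8, 38.2 and 36.8 CPM in the attached control libraries, 102, 102 and 92.1 in the floating control libraries, 70.03, 64.8 and 72.1 in the attached GFI1 libraries and 114, 139.6 and 108 in the floating GFI1 libraries. It rose by 1.42 ± 0.08 log2 with suspension in control and 0.80 ± 0.07 in GFI1 cells (edgeR, adjusted p = 1.2e-13 and 1.6e-09), and by 0.90 ± 0.08 and 0.28 ± 0.07 with GFI1 in attached and floating cells (edgeR, adjusted p = 1.5e-10 and 0.00075), the latter 0.17 without floating GFI1 replicate 2. The genotypes differed by -0.61 ± 0.10 in the suspension effect (edgeR, adjusted p = 0.00016). KDM4B, also a histone demethylase, moved the same way in all 4 comparisons, between 0.31 and 0.70 on the log2 scale. JMJD6, an oxygenase that hydroxylates lysine in RNA-splicing proteins, was at 32.6 to 39.7 CPM in all 12 libraries, and its log2 changes lay between -0.06 and 0.06, each with an SE of 0.06 to 0.07.

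Enzymes of collagen folding rose with suspension and, in part, fell with GFI1. All 5 genes of this role were higher in floating cells of both genotypes, and 3 of 5 were lower with GFI1 in attached cells. Of all genes, 19.6% were higher after suspension in control and 15% in GFI1 cells, and 32.8% were lower with GFI1 in attached cells. PLOD2, a lysyl hydroxylase that shapes collagen crosslinks, measured 305, 299 and 300.3 CPM in the attached control libraries, 364, 384 and 347 in the floating control libraries, 96.7, 100.02 and 97.2 in the attached GFI1 libraries and 132, 153 and 122 in the floating GFI1 libraries, and all 6 GFI1 libraries lay below all 6 control libraries. GFI1 lowered it 3.08-fold in attached and 2.69-fold in floating cells (log2 -1.62 ± 0.06 and -1.43 ± 0.06; edgeR, adjusted p = 4e-18 and 3.8e-17), and suspension raised it by 0.28 ± 0.06 and 0.47 ± 0.06 (edgeR, adjusted p = 0.00024 and 8.3e-07). PLOD1, the related enzyme, was lower with GFI1 (-0.54 ± 0.05 and -0.69 ± 0.05; edgeR, adjusted p = 1.4e-10 and 9.2e-13) and rose with suspension by 0.41 ± 0.05 and 0.26 ± 0.05. ERO1A, the oxidase that recharges disulfide isomerase, measured 108, 114 and 109 CPM in the attached control libraries, 215, 235 and 217 in the floating control libraries, 71.7, 72.1 and 70.4 in the attached GFI1 libraries and 177, 249.8 and 138 in the floating GFI1 libraries. It was lower with GFI1 in attached cells (-0.63 ± 0.12; edgeR, adjusted p = 5.8e-05) and did not pass in floating cells (-0.24 ± 0.11; edgeR, adjusted p = 0.0595), where it passed without floating GFI1 replicate 2 (-0.50).

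P4HA1 and P4HA2 encode the catalytic subunits of the collagen prolyl hydroxylases. P4HA1 rose by 1.38 ± 0.10 log2 in control and 1.55 ± 0.10 in GFI1 cells, and P4HA2 by 0.89 ± 0.08 and 1.11 ± 0.08 (edgeR, adjusted p of 4.9e-09 or less). With GFI1, P4HA1 was higher in floating cells (0.46 ± 0.09; edgeR, adjusted p = 0.00014; 0.28 without floating GFI1 replicate 2) and in attached cells by 0.29 ± 0.11, a call lost without attached control replicate 2 or attached GFI1 replicate 1. P4HA2 did not pass in either state.

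All 3 regulators of transcription rose with suspension in control cells and 2 of 3 did in GFI1 cells, where 19.6% and 15% of all genes rose. In none did the difference between the genotypes pass, which 10.8% of all genes did. MXI1, which opposes MYC, measured 15.8, 15.7 and 18.2 CPM (attached control), 44.1, 47.3 and 44.98 (floating control), 28.1, 32.2 and 31.1 (attached GFI1) and 63.9, 77.3 and 53.1 (floating GFI1), with all attached control libraries lowest and all floating GFI1 libraries highest. It rose by 1.45 ± 0.10 and 1.08 ± 0.09 with suspension and by 0.88 ± 0.11 and 0.51 ± 0.09 with GFI1 (edgeR, adjusted p of 1.9e-05 or less). BHLHE40, a clock-linked repressor, rose by 0.56 ± 0.07 and 0.68 ± 0.06 with suspension (edgeR, adjusted p = 1.3e-07 and 9.3e-09). Its GFI1 effect was 0.29 ± 0.06 in floating cells (0.18 without floating GFI1 replicate 2) and 0.18 ± 0.07 in attached cells, the latter lost without attached control replicate 1 or attached GFI1 replicate 1. RORA, a nuclear receptor, had 34 to 105 counts per library. It rose with suspension in control cells (0.90 ± 0.20; edgeR, adjusted p = 0.00086) and with GFI1 in attached cells (0.64 ± 0.21; edgeR, adjusted p = 0.0092), and in GFI1 cells its suspension effect of 0.44 ± 0.18 did not pass (edgeR, adjusted p = 0.068), except without floating GFI1 replicate 1 or 3.

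NDRG1 and DDIT4 are linked to growth arrest and to inhibition of mTORC1. NDRG1 measured 41.7, 40.8 and 43.96 CPM in the attached control libraries, 763, 733 and 624 in the floating control libraries, 68.7, 65.8 and 66.8 in the attached GFI1 libraries and 891, 1708 and 432 in the floating GFI1 libraries, so every floating library was above every attached one by a wide margin. Suspension raised it 16.8-fold in control and 15.1-fold in GFI1 cells (log2 4.07 ± 0.28 and 3.91 ± 0.27; edgeR, adjusted p = 1.8e-11 and 4.3e-11). Its log2 CPM had an SD of 0.054 in attached control, 0.153 in floating control, 0.031 in attached GFI1 and 0.992 in floating GFI1 libraries. The fit shared 1 estimate of spread over these 4 groups, so the SE for attached cells also holds the floating GFI1 spread. With GFI1 its change was 0.67 ± 0.29 in attached cells (edgeR, adjusted p = 0.045), although the groups did not overlap. This call was lost with any 1 library left out except floating GFI1 replicate 2 or 3 (range 0.65 to 0.70). In floating cells the change of 0.52 ± 0.23 did not pass, and without floating GFI1 replicate 2 or 3 it was -0.09 or 0.88. DDIT4 measured 120.4, 116 and 118 CPM in the attached control libraries, 242, 225 and 221 in the floating control libraries, 90.03, 88.9 and 88.6 in the attached GFI1 libraries and 113, 133 and 117 in the floating GFI1 libraries. It rose by 0.96 ± 0.05 in control and 0.44 ± 0.05 in GFI1 cells, a difference of -0.52 ± 0.07 (edgeR, adjusted p = 1.8e-05), and floating GFI1 cells, at 113 to 133 CPM, spanned the level of attached control cells. It was lower with GFI1 in both states, by log2 values of -0.41 ± 0.05 and -0.93 ± 0.05 (edgeR, adjusted p = 2.2e-07 and 2.2e-14).

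In the lipid group, HILPDA had the largest fall of the 37 with GFI1 in attached cells, while in floating cells PLOD2 fell further (-1.43 against -1.01 log2). HILPDA, a lipid droplet protein that inhibits triglyceride breakdown, measured 40.9, 38.99 and 34.9 CPM in the attached control libraries, 95.8, 88.01 and 94.7 in the floating control libraries, 9.86, 7.80 and 10.5 in the attached GFI1 libraries and 39.4, 75.5 and 24.7 in the floating GFI1 libraries. GFI1 lowered it 4.10-fold in attached and 2.01-fold in floating cells (log2 -2.04 ± 0.26 and -1.01 ± 0.19; edgeR, adjusted p = 1.5e-07 and 7.1e-05), and suspension raised it by 1.28 ± 0.20 in control and 2.31 ± 0.25 in GFI1 cells (edgeR, adjusted p = 9.2e-06 and 7.2e-08). Without floating GFI1 replicate 2 the GFI1 effect in floating cells was -1.54, and over all single libraries left out it ran from -1.54 to -0.69. The difference of 1.03 ± 0.33 (edgeR, adjusted p = 0.0415) was lost without any 1 of the 9 libraries outside the floating GFI1 group and was 0.47 without floating GFI1 replicate 2 (range 0.47 to 1.34). INSIG2, which holds back sterol synthesis, rose by 1.06 ± 0.08 and 1.06 ± 0.09 (edgeR, adjusted p = 2.3e-10 and 6e-10). Its GFI1 effects of -0.24 and -0.23 were called, but not when counts were scaled by library size only, nor without attached control replicate 1 or 2 or attached GFI1 replicate 1 or 3 (attached cells) or without floating control replicate 2 or 3 or floating GFI1 replicate 3 (floating cells). VLDLR, a lipoprotein receptor, rose by 0.55 ± 0.06 and 0.27 ± 0.06 (edgeR, adjusted p = 5.8e-08 and 0.00081), and the difference of -0.28 ± 0.08 was lost with 9 of 12 libraries left out in turn, all but attached GFI1 replicate 3, floating control replicate 3 and floating GFI1 replicate 2 (range -0.34 to -0.23).

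The remaining genes have no shared role. PPFIA4 (chr1:203026498-203078740), a liprin scaffold protein, measured 1.73, 1.57 and 1.72 CPM in the attached control libraries, 31.5, 32.3 and 33.8 in the floating control libraries, 3.21, 3.55 and 3.71 in the attached GFI1 libraries and 32.3, 35.6 and 23.8 in the floating GFI1 libraries. The floating groups overlapped with each other and lay far above both attached groups. It rose 19.4-fold with suspension in control cells and 8.70-fold in GFI1 cells (log2 4.28 ± 0.15 and 3.12 ± 0.13; edgeR, adjusted p = 6.3e-17 and 3e-15), a difference of -1.16 ± 0.23 (edgeR, adjusted p = 0.0015). GFI1 raised it in attached cells (1.06 ± 0.21; edgeR, adjusted p = 0.00012), and in floating cells the change was -0.09 ± 0.10 (edgeR, adjusted p = 0.417). TMEM45A, a membrane protein, measured 1.31, 0.869 and 1.55 CPM in the attached control libraries, 7.41, 6.92 and 5.89 in the floating control libraries, 3.49, 3.97 and 4.21 in the attached GFI1 libraries and 7.83, 9.15 and 6.86 in the floating GFI1 libraries and had the same form: it rose by 2.44 ± 0.20 in control and 1.02 ± 0.15 in GFI1 cells, a difference of -1.42 ± 0.26 (edgeR, adjusted p = 0.00051), and with GFI1 by 1.65 ± 0.21 in attached cells (edgeR, adjusted p = 2.1e-07). WSB1, part of a ubiquitin ligase, measured 49.2, 56.1 and 49.4 CPM (attached control), 86.1, 80.5 and 86.6 (floating control), 119.9, 115 and 117 (attached GFI1) and 161, 169.8 and 143 (floating GFI1). It was higher with GFI1 in both states (1.18 ± 0.06 and 0.90 ± 0.06; edgeR, adjusted p = 4.4e-15 and 3.8e-13) and after suspension in both genotypes (0.71 ± 0.06 and 0.43 ± 0.05), and the difference of -0.28 ± 0.08 was lost without attached control replicate 1 or 3, attached GFI1 replicate 1 or floating control replicate 1 or 3 (range -0.35 to -0.21). ANKRD37, an ankyrin repeat protein, had 31 to 112 counts per library and rose by 0.97 ± 0.23 and 0.90 ± 0.21 (edgeR, adjusted p = 0.0015 and 0.002), the latter 0.55 without floating GFI1 replicate 2, but 40.3% of its exon bases are shared with UFSP2 on the opposite strand.

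Whether suspension acted differently in the 2 genotypes was tested by the interaction of GFI1 and suspension, and 17 of the 37 genes passed, where 10.8% of all genes did. The difference was positive for 6 (4.76% of all genes) and negative for 11 (6.01%), and it was 2-fold or more for 2 (0.533%) and 4 (0.819%) of these. GFI1 itself rose 1.93-fold with suspension in GFI1 cells (log2 0.95 ± 0.10, edgeR, adjusted p = 2.4e-08). Floating and attached GFI1 cells thus also differed in GFI1 level, and the part of that level in the interaction was not tested. Calls for HIF1A, EGLN1, ADM, STC1, FAM162A, KDM3A, DDIT4, PPFIA4 and TMEM45A held with each library left out and under every alternative other than the 2-fold minimum, 9 genes in all, and ADM, STC1, PPFIA4 and TMEM45A were among the 6 of 2-fold or more. For the other 8 the call was lost in at least 1 of the fits without that minimum: STC2, AK4 and HILPDA with DESeq2, these and CA9, CITED2 and ANGPTL4 with robust empirical Bayes, VLDLR without the filter on low counts, and WSB1 only with single libraries left out. Of the suspension effects, 33 of 35 calls in control cells and 32 of 32 in GFI1 cells held in those same fits. Of the GFI1 effects, 24 of 33 calls in attached and 21 of 25 in floating cells did. Both DESeq2 and robust empirical Bayes lost EPAS1 and ADM after suspension in control cells, ADM, AK4, P4HA1 and NDRG1 with GFI1 in attached cells, and CA9, STC1 and AK4 with GFI1 in floating cells. Of the 8 genes that rose by over 2 log2 in control cells, the difference passed for CA9, PPFIA4, STC1, ANGPTL4, CITED2 and TMEM45A, which lie below the line of equal values in the plot of the 2 suspension effects. For NDRG1 (4.07 and 3.91, a difference of -0.15 ± 0.37; edgeR, adjusted p = 0.861) and EGLN3 (2.53 and 2.05, a difference of -0.47 ± 0.22; edgeR, adjusted p = 0.197) it did not pass, and without floating GFI1 replicate 2 both passed, at -0.79 and -0.79.

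**Figure D3:**
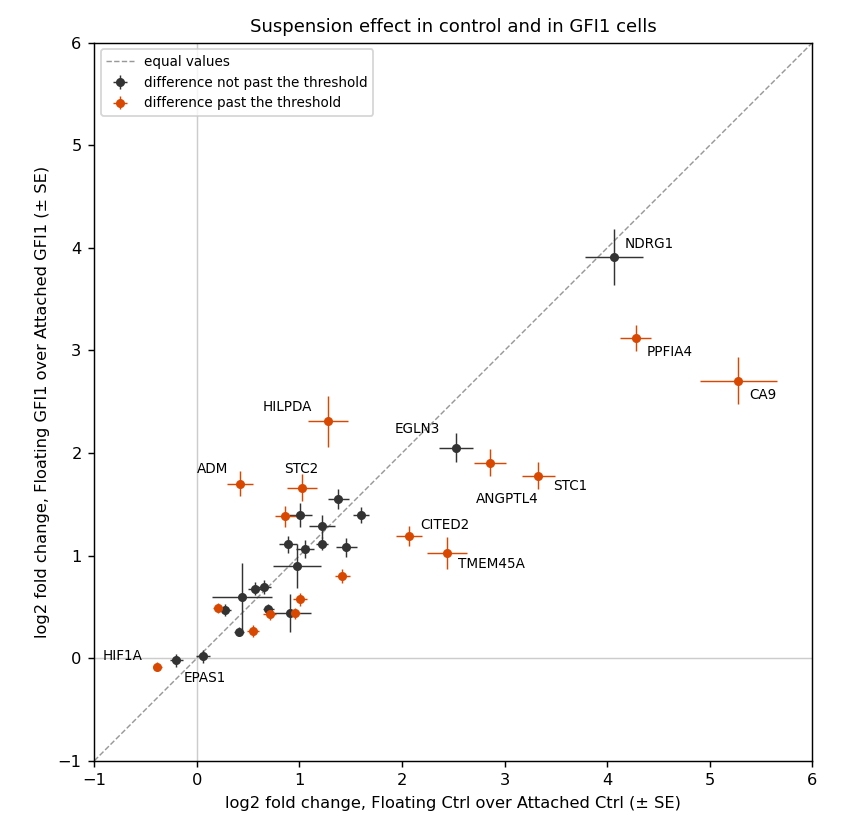
Each point is 1 of the 37 genes, with its log2 fold change of floating over attached cells in control cells (horizontal) and in GFI1 cells (vertical), and bars of 1 SE. Orange marks the 17 genes whose suspension effects differed between the genotypes (edgeR, adjusted p of 0.05 or less). CA9 lies at 5.28 and 2.71, and ADM and HILPDA lie above the line of equal values.

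**Figure D4:**
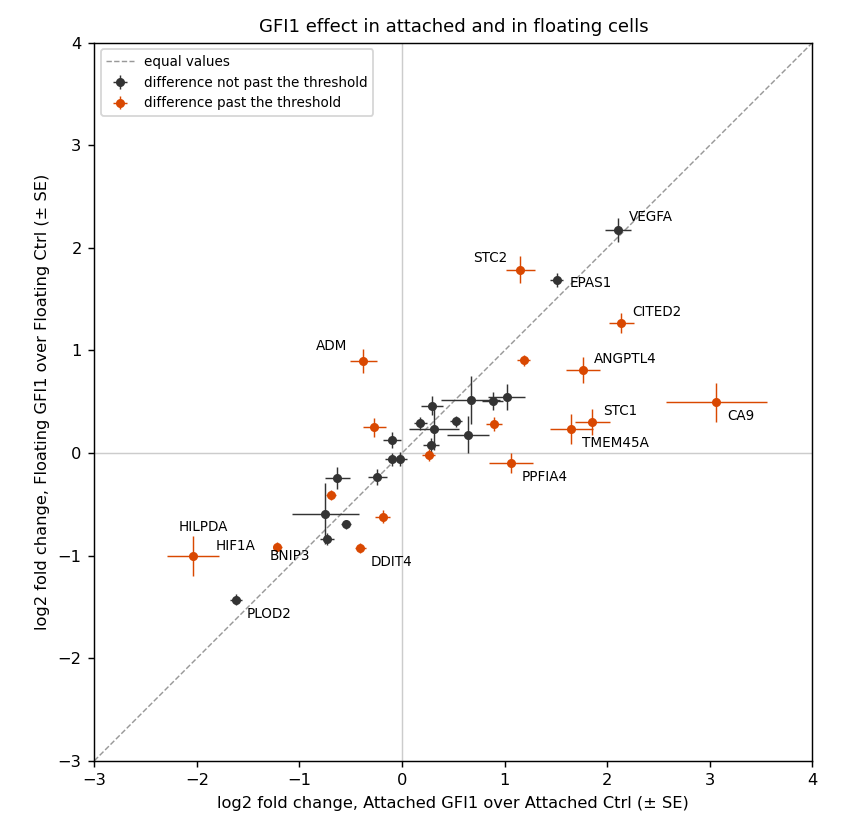
Each point is 1 of the 37 genes, with its log2 fold change of GFI1 over control in attached (horizontal) and floating cells (vertical), and bars of 1 SE. Orange marks the same 17 genes. CA9, STC1, TMEM45A and PPFIA4 lie at 3.07, 1.85, 1.65 and 1.06 in attached cells and at 0.49, 0.30, 0.24 and -0.09 in floating cells, VEGFA and EPAS1 lie near the line of equal values, and ADM is negative in attached and positive in floating cells.

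By level, attached control cells were the lowest group for 20 of the 37 genes, with all 3 libraries below the other 9 (12.3% of all genes). Floating GFI1 cells were the highest group for 11, with all 3 libraries above the other 9 (10.3%): ADM, ANGPTL4, BHLHE40, CITED2, KDM3A, KDM4B, MXI1, P4HA1, STC2, VEGFA and WSB1. Groups did not overlap for 33 genes that were higher after suspension in control cells (24.7% of all genes), 2 that were lower there (25.2%) and 33 that were higher in GFI1 cells (20.2%), and for 21 that were higher (32.2%) and 13 that were lower (34.8%) with GFI1 in attached cells. In floating cells the groups did not overlap for 12 genes that were higher (31.7%) and 9 that were lower (32.7%).

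The floating GFI1 replicates were spread much more widely for these genes than replicates of the other groups, and this difference in spread was described, not tested. The median range of log2 CPM over the 3 libraries was 0.47, against 0.10 in attached control, 0.09 in attached GFI1 and 0.14 in floating control cells, while over all genes it was 0.18 to 0.22 in every group. The range was over 0.5 for 18 of 37 genes in floating GFI1 cells and for 1 or 2 in the other groups, with 20% to 22.1% of all genes. The fit gave each gene 1 estimate of spread for all 4 groups. For genes widely spread here, SE and p are thus likely too large in comparisons without floating GFI1 cells and too small with them. The order was nearly fixed: replicate 2 was highest for 34 of 37 genes (34.4% of all genes) and replicate 3 was lowest for 34 of 37 (35.2%). NDRG1 had the widest range, 1.98 log2, at 16163, 30980 and 8683 counts in replicates 1, 2 and 3. HILPDA (39.4, 75.5 and 24.7 CPM), CA9 (20.5, 28.9 and 11.2 CPM), ANKRD37 (4.14, 6.18 and 2.84 CPM) and STC2 (305, 425 and 214 CPM) followed, each highest in replicate 2 and lowest in replicate 3. HIF1A itself did not follow this order (255, 255 and 274 CPM), and EPAS1 did (952, 1142 and 885 CPM). GFI1 had the same order among the 3 libraries, at 545, 706 and 430.2 CPM, and mitochondrial transcripts were 6.30%, 6.15% and 6.72% of counts; the part of either in the spread was not tested.

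**Figure D5:**
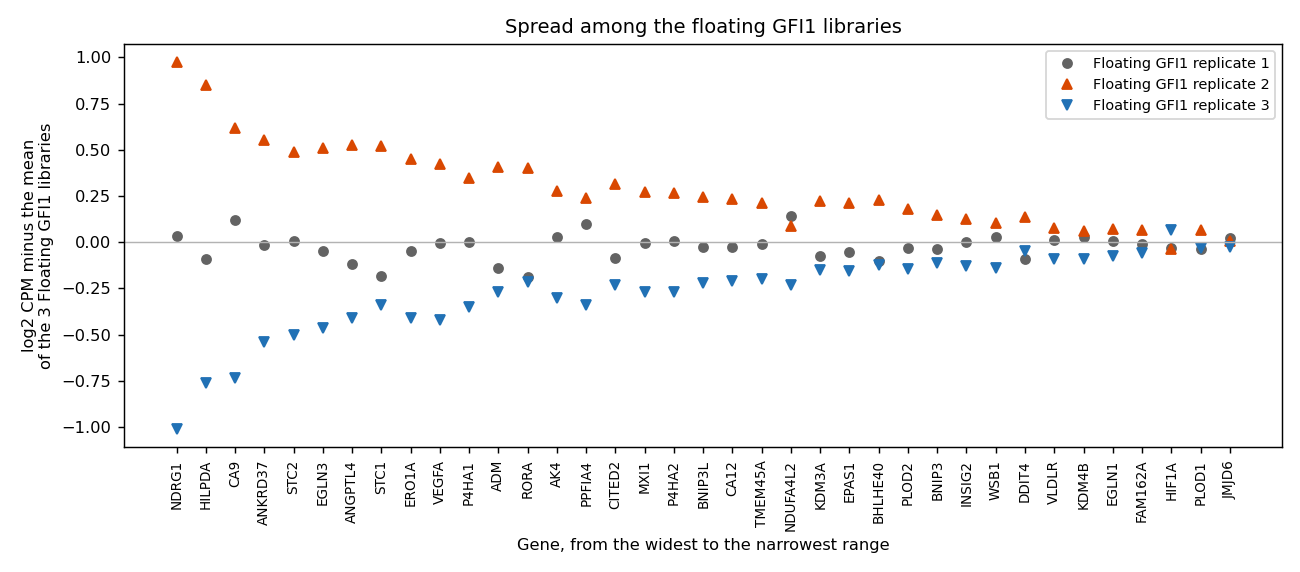
Log2 CPM of each gene in the 3 floating GFI1 libraries minus their mean (vertical axis), with genes ordered from the widest to the narrowest range. Replicate 2 (orange) is on top for 34 of the 37 genes and replicate 3 (blue) is at the bottom for 34, and the range falls from 1.98 for NDRG1 to near 0 for JMJD6.

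The effect of these libraries on the counts was as follows. Without floating GFI1 replicate 2, suspension still raised 32 of 37 genes in GFI1 cells with a median log2 change of 0.92, and without replicate 3 it raised 33 with a median of 1.14. The GFI1 effect in floating cells was higher for 13 and lower for 12 genes without replicate 2, and higher for 20 and lower for 8 without replicate 3. The interaction was lower for 17 genes and higher for 6 without replicate 2, and lower for 10 and higher for 11 without replicate 3. The direction of the suspension effect therefore did not rest on 1 library, and the count of genotype differences did.

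Genes of glycolysis and glucose transport listed as HIF-regulated were set beside the 37, and HIF activity itself was not measured. Of 23 such genes, 17 rose and 1 fell with suspension in control cells and 17 rose and 2 fell in GFI1 cells, with medians of 0.32 and 0.47 against 1.00 and 1.06 for the 37 genes. That is 73.9% higher in each genotype, against 19.6% and 15% of all genes. With GFI1 in attached cells 10 were higher (43.5%, against 29.5% of all genes) and 11 lower (47.8%, against 32.8%), with a median of -0.23. In floating GFI1 cells their replicates had the same order: replicate 2 was highest for 21 of 23 and replicate 3 lowest for 20 of 23. Of 17 genes of ATF4 and unfolded protein stress, a response that shares DDIT4, STC2, VEGFA and others with hypoxia, 8 rose and 2 fell in control cells and 8 rose and 3 fell in GFI1 cells, with medians of 0.11 and 0.15. That is 47.1% higher in each genotype, against the same 19.6% and 15% of all genes. For these, replicate 2 was highest for 11 of 17 and replicate 3 lowest for 10 of 17 in floating GFI1 cells, and for the 17 other HIF pathway genes 10 and 5. No difference between the lists was tested.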

How the data were processed

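The deposited table held whole-number counts of reads per gene for 12 libraries (4 groups of 3), with gene length in bases, on hg38. The study's methods state poly-T capture, Hisat2 alignment and featureCounts, while the submitters' processing notes name Bowtie2 and HTSeq; these were not reconciled, and strandedness and annotation release were not given in the sources used here. Counts as deposited by the authors were used without change. Groups and replicate numbers came from sample titles, and nothing says that replicates came from separate cultures, so p-values measure only the spread between these libraries, which may be technical.

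Genes were kept by edgeR's filterByExpr (minimum count 10, minimum total 15), which left 17829 genes. TMM scaling and edgeR 4.0.16's quasi-likelihood test (R 4.3.3) were applied in 1 fit of 4 group means over all 12 libraries, with 5 contrasts, and p-values were adjusted by Benjamini-Hochberg over all genes at 0.05. SE was taken from the F statistic, CPM used TMM library sizes, and log2 CPM a prior count of 2. The script was tested on simulated data. The 37 genes and all lists were chosen with earlier results of these data known. Full values were given by rule for HIF1A, EPAS1, CITED2, EGLN1, EGLN3, CA9, NDRG1 and PPFIA4, for up to 4 highest and 4 lowest called genes per contrast with a mean of at least 1 CPM, and for the 5 widest ranges in floating GFI1 libraries. Alternatives were DESeq2 1.42.0, RLE or library-size scaling, no filter or at least 10 counts in every library, only the 2 groups compared, a replicate block, robust empirical Bayes, a 2-fold minimum and each library left out.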

Additional observations from a re-analysis of the deposited data

Results flagged for a closer look

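For 17 genes the effect of suspension differed between the genotypes by the interaction test (edgeR, threshold 0.05 after adjustment over all genes). In 9 of them the call held with each library left out and under every alternative other than the 2-fold minimum, which left ADM, STC1, TMEM45A and PPFIA4 of these 9. Among these the effect in GFI1 cells minus that in control cells was 1.28 for ADM, 0.30 for HIF1A and 0.28 for EGLN1, and it was -1.55 for STC1, -1.42 for TMEM45A, -1.16 for PPFIA4, -0.61 for KDM3A, -0.52 for DDIT4 and -0.43 for FAM162A (log2). For HIF1A, the positive difference stands beside a fall of 0.39 in control cells. In the other 8 the call was lost in at least 1 of the fits without that minimum: 1.03 for HILPDA, 0.64 for STC2 and 0.52 for AK4, and -2.57 for CA9, -0.95 for ANGPTL4, -0.88 for CITED2, -0.28 for VLDLR and -0.28 for WSB1. GFI1 itself was higher in floating than in attached GFI1 cells (log2 0.95), and its part in these differences was not tested.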

How the results depend on the processing

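Over the alternatives other than leaving out a library, 1362 values of single genes kept their direction and side of the threshold, 43 fell short of the threshold, 15 passed it newly and 13 changed sign. With counts scaled by library size only, the 37 genes had 8 lower calls in attached cells with GFI1 and median GFI1 effects of 0.43 and 0.36 in attached and floating cells. CA12 was then 0.0462 and 0.0687 with GFI1 in attached and floating cells, JMJD6 0.13 and 0.0711, P4HA2 0.0473 in attached cells, VLDLR 0.11 and PPFIA4 0.0346 in floating cells. JMJD6 in attached cells was 0.00741 with at least 10 counts in every library and 0.00539 with only the 2 groups compared. The interaction for INSIG2 was -0.00595 with DESeq2, -0.00648 with RLE, -0.0131 with library size only and -0.00198 with at least 10 counts in every library. DESeq2 and robust empirical Bayes each called 1 gene lower after suspension in control cells and 3 genes higher for the interaction; the cause was not tested. A 2-fold minimum left 11 higher and 3 lower genes for GFI1 in attached cells, 4 and 2 in floating cells, 19 and 0 for suspension in control cells, 20 higher in GFI1 cells, and 2 higher and 4 lower for the interaction.

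With each library left out in turn, the GFI1 effect in attached cells was higher for 17 to 20 and lower for 9 to 13 genes (median 0.25 to 0.32), and in floating cells higher for 13 to 20 and lower for 8 to 12 (median -0.0465 to 0.33). Suspension was higher for 32 to 33 and lower for 1 to 2 genes in control cells (median 0.98 to 1.01), and higher for 32 to 33 and lower for 0 to 1 in GFI1 cells (median 0.92 to 1.14). The interaction was higher for 3 to 11 and lower for 9 to 17 (median -0.20 to -0.0252). Effects that changed sign ranged, for GFI1 in floating cells, from -0.0862 to 0.48 (ANKRD37), -0.0465 to 0.18 (BNIP3L), -0.18 to 0.0381 (CA12), -0.0929 to 0.88 (NDRG1), -0.0136 to 0.25 (P4HA2), -0.21 to 0.0605 (PPFIA4), -0.0481 to 0.31 (RORA) and -0.0643 to 0.0247 (VLDLR). For the interaction they ranged from -0.42 to 0.17 (ANKRD37), -0.0275 to 0.18 (BHLHE40), -0.10 to 0.14 (CA12), -0.0784 to 0.0731 (INSIG2), -0.13 to 0.0133 (JMJD6), -0.79 to 0.21 (NDRG1), -0.14 to 0.52 (NDUFA4L2), -0.0406 to 0.33 (P4HA1) and -0.19 to 0.25 (VEGFA). With GFI1 in attached cells the range was -0.0314 to 0.00539 (JMJD6), and after suspension in GFI1 cells -0.15 to 0.0575 (EPAS1). None of these 19 effects passed the test with all libraries.

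Same-numbered libraries showed no shared deviation: over 18 pairs the correlation of their deviations from group means was -0.03 to 0.03. Of 12 libraries, 3 correlated best with their own number. Whether the cultures were paired is not given by the labels, and these correlations cannot show it. With the replicate block, ERO1A with GFI1 in floating cells (-0.26, adjusted p = 0.0152) and RORA after suspension in GFI1 cells (0.44, adjusted p = 0.0433) passed, and no other call of the 37 genes changed. Depth limited NDUFA4L2, RORA, ANKRD37 and CA9 in attached control cells, which had from 5 to 112 counts per library. It also limited TMEM45A (16 to 27 counts) and PPFIA4 (29 to 30 counts) in attached control libraries, on which their suspension and interaction effects rest.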
